A study of Mus musculus with 22 samples.

Results

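Aquaporins are the membrane channels through which water crosses cell membranes. Of the 52636 genes in the deposited table, the 7 described here were those whose symbol was Aqp1, Aqp3, Aqp4, Aqp5, Aqp7, Aqp8 or Aqp11, and all 7 were found. The family has an orthodox branch selective for water (Aqp1, Aqp4, Aqp5), aquaglyceroporins that also pass glycerol and other small solutes (Aqp3, Aqp7), and Aqp11, an unorthodox member of intracellular membranes. Aqp8 passes water and is also known as a route for hydrogen peroxide, as are Aqp3 and some others. In the intestine, aquaporins carry the water that follows absorbed and secreted ions, and hydrogen peroxide is one of the long-lived species that plasma leaves in a liquid. The rule itself uses names and no measured value.

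RNA was sequenced from organoids, 3-dimensional cultures of epithelium grown in Matrigel from mouse duodenal crypts. Each organoid line came from 1 wild-type mouse aged 2 months, of the outbred CD1 strain by the methods (male mice for lines 1 and 2, female mice for lines 3 and 4), so a line is 1 animal and the libraries of a line are repeat cultures of it. The labels give passage 12 for line 1, passage 14 for line 2 and passage 4 for lines 3 and 4. The agent was cold atmospheric plasma (CAP), an ionized helium jet at 50 W for 60 s. Untreated cultures of lines 1, 2, 3 and 4 gave 4 libraries, and each of the 6 treated groups held 3 libraries, 1 each from lines 1, 2 and 4. In the direct CAP 30 min and direct CAP 24 h groups, the jet was held over the organoids themselves at day 1, and fresh medium came 30 min or 24 h afterwards. In the indirect CAP groups, organoids received, from day 1 or from day 2, medium from another culture that had been treated. In the PAM groups they received plasma-activated medium, treated with no organoids in it, from day 1 or from day 2. The methods give an exposure of 24 h for all 4 indirect CAP and PAM groups and collection at day 3, whereas the labels give 0.5 h for the day 1 groups and 24 h for the day 2 groups, so exposure time in the day 1 groups rests on the methods alone. Comparisons of day 2 with day 1 groups therefore differ in starting day, in time since exposure and possibly in its length, and these cannot be told apart. No untreated culture is labelled as one whose medium was changed on the schedule of the treated ones.

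Values are the authors' scaled counts, CP20M, in which each library's reads on genes are set to 20 M and rounded up. Gene length does not enter them. The estimated depth before scaling was 19.4 to 28.7 M reads per library. Epithelial markers (Epcam, Cdh1, Vil1, Krt8, Krt18, Cdx2) summed to 85647 or more in every library, so the label of epithelium was met, whereas the label of stem cells was met less well in treated cultures: the 5 stem cell markers Lgr5, Olfm4, Smoc2, Ascl2 and Axin2 summed to 32557 to 38876 in the untreated libraries and to 757 to 2747 in PAM day 2. Across genes, the deviations of treated libraries from their group means correlated positively in every pair from the same line (45 of 45 pairs over 0.1, median r of 0.564). The untreated library labelled line 1, however, resembled treated line 2 (median r of 0.541) more than treated line 1 (0.0751), and the untreated library labelled line 2 resembled treated line 1 (0.353) more than treated line 2 (0.132). The labels of those 2 untreated libraries are therefore in doubt as to line. These correlations are of deviations from group means, so they cannot show whether a treatment label is right. Comparisons of group means do not depend on which of the 2 is which, and results are given with and without both. Fits against untreated that take line as a replicate block do use these labels, so calls lost or gained in them share the doubt.

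On GRCm38, Aqp7 (chr4:41033074-41048139) and Aqp3 (chr4:41092722-41098183) are close neighbours on the minus strand. Aqp1 lies at chr6:55336432-55348555 on the plus strand, Aqp11 at chr7:97724006-97738289 on the minus strand, Aqp8 at chr7:123462291-123468004 on the plus strand and Aqp5 at chr15:99590782-99594829 on the plus strand. RefSeq start windows (250 bases before to 50 after a gene's start, GRCm38.p6) were matched to 6 of the 7 genes. The 250 bases before the start are shown for Aqp1, the most abundant aquaporin and one that fell, and for the neighbours Aqp7 and Aqp3, of which 1 passed the test and the other did not. They were searched on both strands for the AP-1 site TGANTCA and the antioxidant response element core TGACNNNGC, letters bound by factors known to answer oxidative stress, and 1 stretch of letters can match both. Capitals would mark a match, and there are none.
Aqp1, chr6:55336049-55336298, plus strand: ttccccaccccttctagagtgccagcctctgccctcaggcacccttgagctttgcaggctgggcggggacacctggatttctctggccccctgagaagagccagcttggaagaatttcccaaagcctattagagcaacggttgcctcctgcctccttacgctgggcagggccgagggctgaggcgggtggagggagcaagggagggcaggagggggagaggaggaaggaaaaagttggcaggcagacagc
Aqp7, chr4:41048137-41048386, minus strand: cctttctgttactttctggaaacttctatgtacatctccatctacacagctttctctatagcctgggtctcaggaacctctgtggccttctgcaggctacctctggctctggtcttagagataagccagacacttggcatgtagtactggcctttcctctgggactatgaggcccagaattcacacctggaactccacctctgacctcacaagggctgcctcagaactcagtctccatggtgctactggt
Aqp3, chr4:41098184-41098433, minus strand: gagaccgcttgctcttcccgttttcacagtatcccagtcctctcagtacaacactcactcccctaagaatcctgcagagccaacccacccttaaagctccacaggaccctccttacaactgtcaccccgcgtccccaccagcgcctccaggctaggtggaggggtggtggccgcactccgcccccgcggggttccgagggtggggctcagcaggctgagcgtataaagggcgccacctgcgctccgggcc
None of the 7 windows of the 6 matched genes, Aqp7 having 2, held either motif, while 7.81% of all 32851 RefSeq windows held the AP-1 letters and 12.4% the antioxidant core. This says only that those letters are not in these windows.

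To compare the genes with each other, each value was divided by the gene's exon length in kilobases. In untreated organoids Aqp1, a constitutive water channel best known from red cells, kidney and capillary endothelium, was the most abundant, at 1150 ± 188 (SD, n = 4) reads per 20 M per kilobase. Aqp4, the main water channel of astrocytes and also of some gastric and other epithelia, followed at 284 ± 81.0. Aqp11 (161 ± 28.4) and Aqp3 (153 ± 48.2) overlapped with each other. Aqp5, known from salivary, lacrimal and airway glands, stood at 13.9 ± 17.1, Aqp8 at 11.4 ± 6.22 and Aqp7 at 4.07 ± 1.65, and these 3 overlapped in their ranges. The lowest Aqp1 library (1020) lay above the highest Aqp4 library (399), and the lowest Aqp4 library (210) above the highest Aqp11 library (195). With the longest transcript in place of all exons, the last of these did not hold, because Aqp11 then reached 317 and Aqp4 began at 259. In bulk RNA, fewer cells of a type and less RNA per cell cannot be told apart, here and in each result that follows.

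The make-up of the family differed between groups. Aqp1 gave 64.8% ± 1.61 (SD, n = 4) of the summed per-kilobase level of the 7 genes in untreated organoids and 31.6% ± 10.1 (n = 3) in PAM day 2, and Aqp4 gave 15.8% ± 2.05 and 1.45% ± 0.842. The summed level was 1780 ± 291 in untreated organoids, between 1590 and 2210, and 752 ± 55.7 in PAM day 2, between 691 and 800. In PAM day 2, the mean per-kilobase levels of Aqp1 (240 ± 85.3), Aqp5 (166 ± 178), Aqp3 (157 ± 67.6) and Aqp11 (148 ± 79.8) lay within each other's spread, with Aqp4 at 10.6 ± 5.89. The leading gene differed by line there, Aqp1 in line 1 (42.4%), Aqp3 in line 2 (34.0%) and Aqp5 in line 4 (44.3%). No test was made on these shares, which depend on one another.

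**Figure D1:**
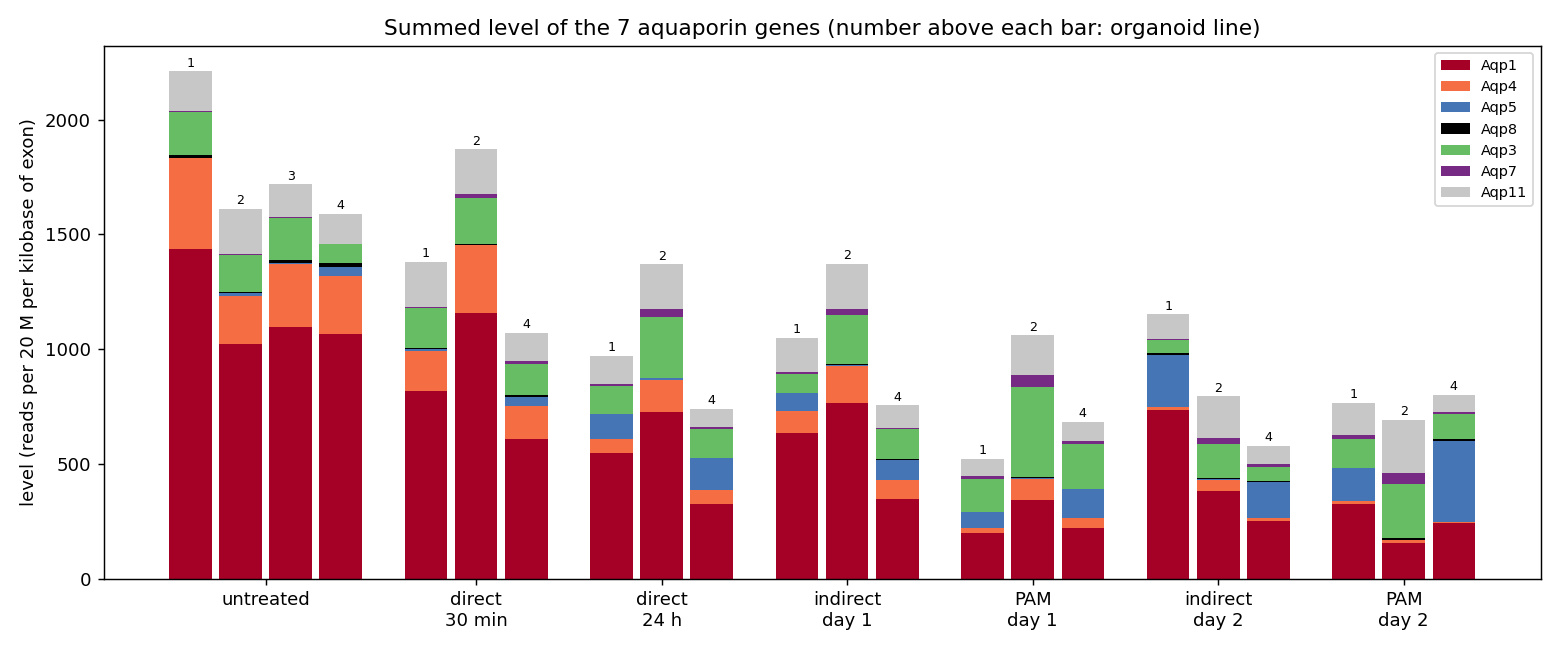
Level of each aquaporin per kilobase of exon (reads per 20 M per kilobase, stacked bars on a linear axis from 0) in each of the 22 libraries, grouped by treatment, with the line number above each bar. The untreated bars reach 1590 to 2210 and are mostly Aqp1, while the PAM day 2 bars reach 691 to 800.

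Aqp1 fell in PAM day 1, indirect CAP day 2 and PAM day 2. In untreated organoids its CP20M value was 3763 in line 1, 2681 in line 2, 2872 in line 3 and 2806 in line 4. With direct CAP for 30 min, values in lines 1, 2 and 4 were 2142, 3038 and 1602, with direct CAP for 24 h 1437, 1908 and 850, and with indirect CAP from day 1 1662, 2013 and 915. With PAM from day 1 they were 524, 902 and 584, with indirect CAP from day 2 1915, 1007 and 658, and with PAM from day 2 853, 405 and 635. Every treated library other than the line 2 library of direct CAP 30 min lay below the lowest untreated one. Genes were called lower or higher where limma's moderated test on log2(value + 1) gave a Benjamini-Hochberg adjusted p under 0.01, adjusted over all genes tested, and the log2 fold change was 1 or more in size. Against untreated, the log2 fold change of Aqp1 was -2.20 (SE 0.20, adjusted p = 0.000182) in PAM day 1, -2.31 (SE 0.24, adjusted p = 0.000412) in PAM day 2 and -1.47 (SE 0.31, adjusted p = 0.00603) in indirect CAP day 2, all 3 called lower. It was -1.18 (SE 0.25, adjusted p = 0.0167) in direct CAP 24 h, -1.05 (SE 0.25, adjusted p = 0.0237) in indirect CAP day 1 and -0.46 (SE 0.21, adjusted p = 0.212) in direct CAP 30 min, none of them past the threshold. Without the untreated libraries of lines 1 and 2, only PAM day 1 kept its call (-2.12, adjusted p = 0.00369), with -2.23 (adjusted p = 0.0127) in PAM day 2 and -1.39 (adjusted p = 0.0479) in indirect CAP day 2. With 3 libraries against 2, that setting called 1 of 17146 genes in all in PAM day 2, 866 in PAM day 1 and 1057 in indirect CAP day 2. Dropping 1 library at a time, the indirect CAP day 2 call did not survive the loss of any of the 4 untreated libraries or of the line 2 or line 4 treated library (6 of 7 fits), with adjusted p between 0.0121 and 0.0194. In direct CAP 24 h, the fit without the line 2 treated library passed (-1.44, adjusted p = 0.00812).

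Since Aqp1 is abundant in endothelium and red cells, markers of both were read in the same libraries. The endothelial markers Cdh5, Kdr and Emcn were at most 3, 1 and 1 in any of the 22 libraries, Tie1 at most 6 and Pecam1 between 1 and 28. Of the red cell markers, Hbb-bs was at 0 in every library, Hba-a1 was at most 9 and Alas2 between 12 and 44. Markers of several epithelial cell types differed from untreated as well, not all in the same groups or in the same direction. Of the 5 stem cell markers, none was called in direct CAP 30 min, 2 were called lower in each of direct CAP 24 h and indirect CAP day 1, and all 5 in PAM day 1, indirect CAP day 2 and PAM day 2. Their summed values ran from 20274 to 32015 in direct CAP 30 min, 5313 to 10861 in direct CAP 24 h, 5936 to 15040 in indirect CAP day 1, 1306 to 2640 in PAM day 1 and 2703 to 3953 in indirect CAP day 2. Paneth cell markers (6 genes) summed to 30017 to 41590 in untreated organoids, 18120 to 28614 in indirect CAP day 2, 4370 to 19040 in PAM day 1 and 4856 to 21442 in PAM day 2. They were also below untreated in direct CAP 24 h (14517 to 24155) and indirect CAP day 1 (9196 to 21937). Neither Aqp1 nor Aqp4 was called in those groups, though all treated values of both genes also lay below all untreated ones. The Brunner's gland markers Muc6, Tff2 and Dmbt1 summed to 41225 to 44516 in untreated organoids, 10593 to 19941 in indirect CAP day 2 and 7950 to 16735 in PAM day 2. That sum is almost wholly Dmbt1 (7705 to 45537), since Muc6 was at most 238 and Tff2 at most 91 in any library. Dmbt1 was called lower and Muc6 higher in both groups, so the list did not move as 1. Goblet cell markers (5 genes) summed to 73232 to 129624 in untreated organoids and 17395 to 45957 in PAM day 2, but 80270 to 179321 in PAM day 1. Enterocyte markers (6 genes) went the other way in PAM day 2, at 133893 to 175031 against 88545 to 106400 in untreated organoids. Tuft cell markers (4 genes) summed to 94 to 171 in untreated organoids and 187 to 681 in PAM day 1. The highest of these sums rest mainly on Avil (10 to 577 over the 22 libraries). Dclk1 was at most 18, Pou2f3 at most 46 and Trpm5 at most 81 in any library. Enteroendocrine markers (5 genes) overlapped with untreated organoids (1889 to 3143) in PAM day 1, indirect CAP day 2 and PAM day 2. No marker of these epithelial lists was at 0 in all libraries, and the part of cell content in the Aqp1 and Aqp4 values was not tested.

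Aqp4 fell in the same 3 groups, in each of them with the most negative fold change of the 7 genes, and its group means were lowest in the day 2 groups. The gene spans chr18:15389496-15410982 on the minus strand. Untreated values were 2484, 1309, 1704 and 1577 in lines 1, 2, 3 and 4. Lines 1, 2 and 4 had 1103, 1857 and 887 with direct CAP for 30 min, 372, 873 and 387 with direct CAP for 24 h, and 606, 988 and 514 with indirect CAP from day 1. They had 139, 570 and 268 with PAM from day 1, 86, 301 and 91 with indirect CAP from day 2, and 89, 86 and 24 with PAM from day 2. Apart from direct CAP 30 min, where the line 2 library overlapped, each treated group lay wholly below the untreated libraries. The log2 fold change of Aqp4 was -4.89 (SE 0.45, adjusted p = 0.000338) in PAM day 2, a 29.6-fold lower value, and -3.68 (SE 0.42, adjusted p = 0.000349) in indirect CAP day 2, a 12.8-fold lower value. Among all genes tested these were the 25th and the 28th most negative. In PAM day 1 it was -2.63 (SE 0.42, adjusted p = 0.00189), also called lower. In direct CAP 24 h (-1.78, SE 0.32, adjusted p = 0.0101), indirect CAP day 1 (-1.35, SE 0.26, adjusted p = 0.0134) and direct CAP 30 min (-0.49, SE 0.28, adjusted p = 0.296) it did not pass. The direct CAP 24 h value sat at the threshold, with an adjusted p of 0.0095 at a pseudocount of 10, 0.00978 with no filter on low values and 0.0036 without the line 2 treated library. With line as a replicate block the PAM day 1 call was lost (adjusted p = 0.0171). Without the untreated libraries of lines 1 and 2, only indirect CAP day 2 kept its call (-3.61, adjusted p = 0.00622), with -2.56 (adjusted p = 0.0187) in PAM day 1 and -4.82 (adjusted p = 0.0126) in PAM day 2.

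**Figure D2:**
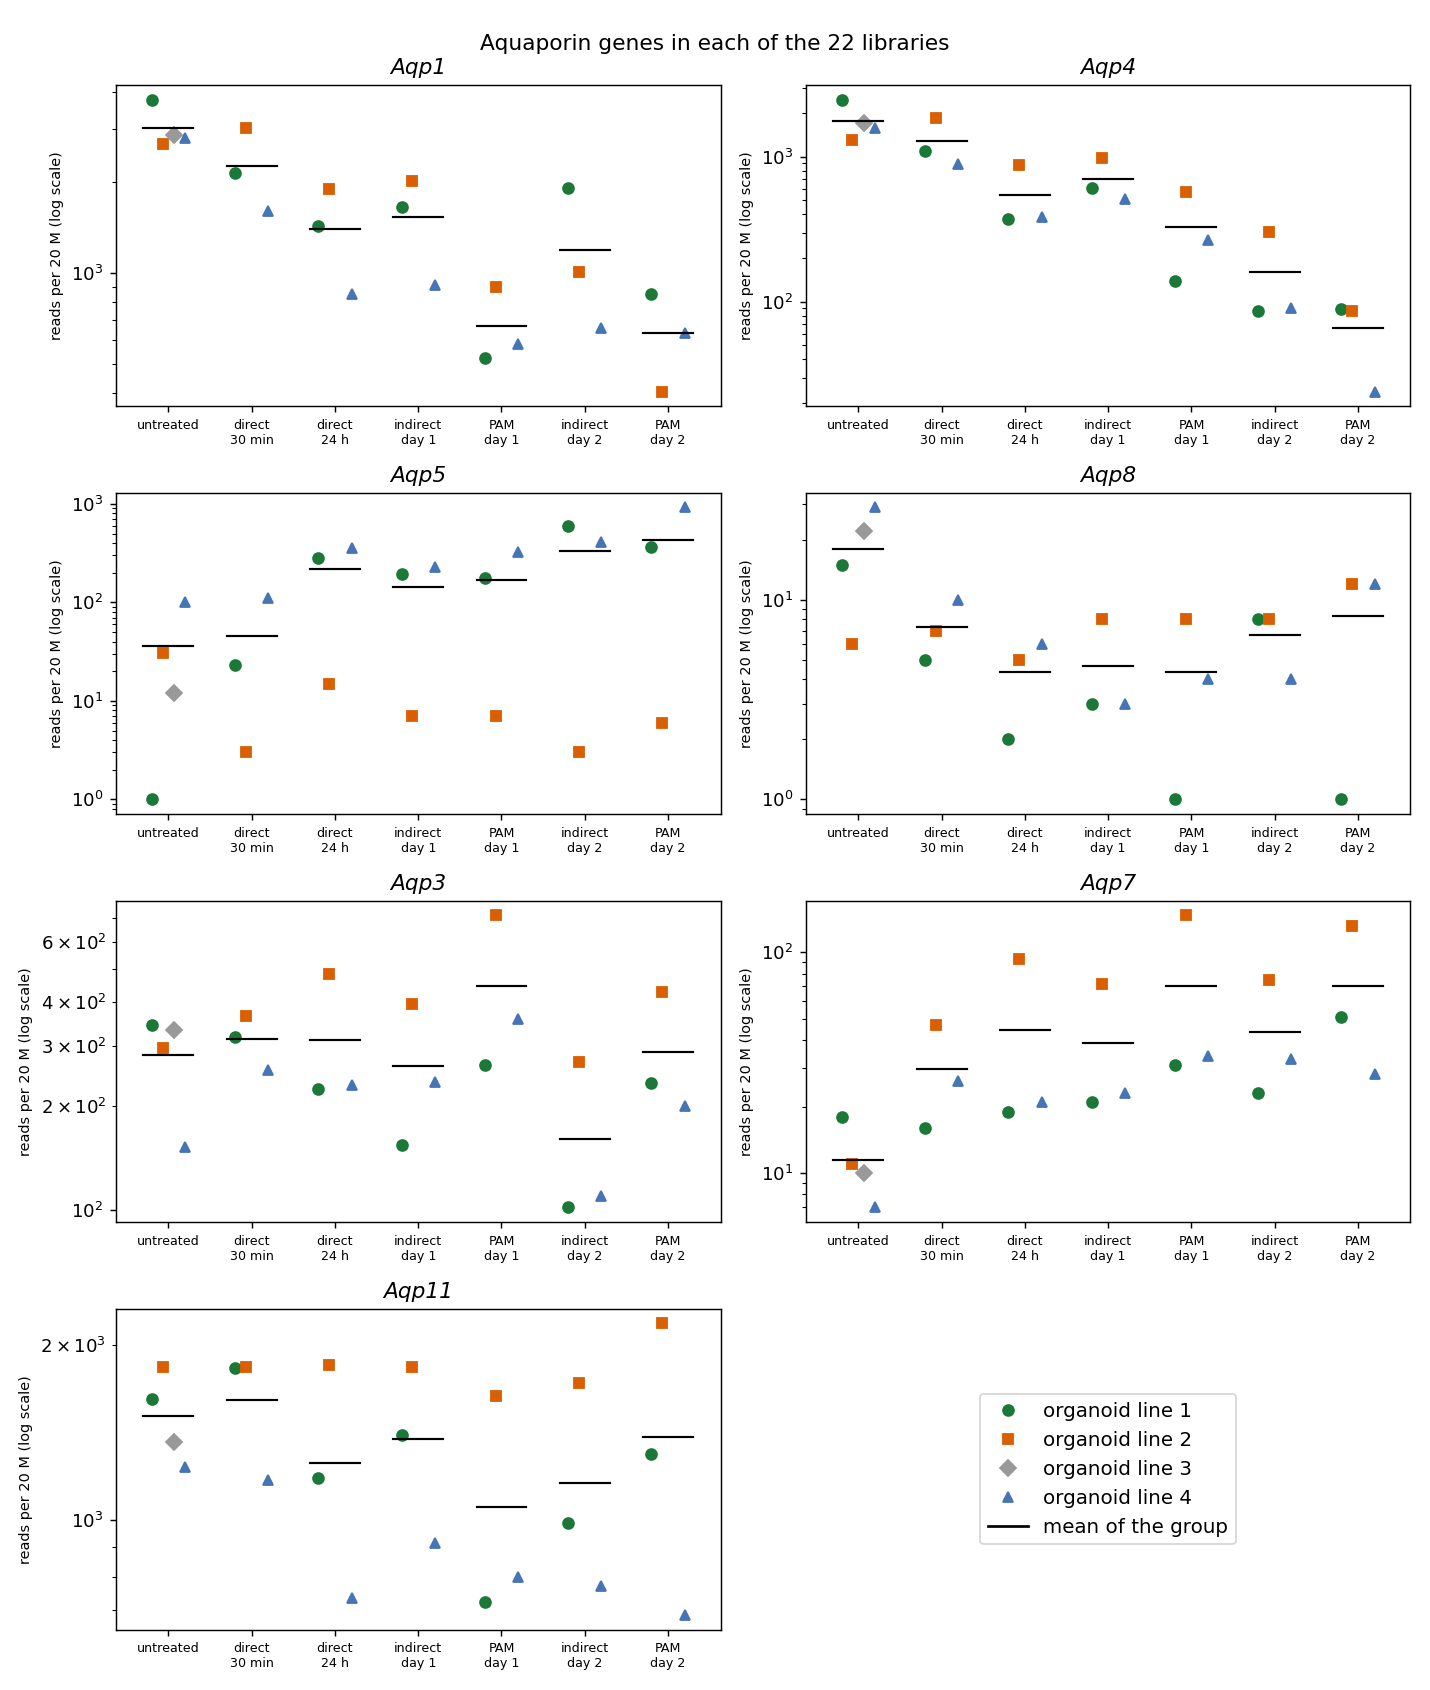
CP20M value (reads per 20 M, log axis) of each of the 7 aquaporins in the 22 libraries, 1 panel per gene, with 1 point per library coloured by organoid line and a bar at the group mean. Aqp4 runs from 1309 to 2484 in untreated libraries and from 24 to 89 in PAM day 2, and the line 2 points of Aqp5 stay at 3 to 15 in every treated group.

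Counted over the 7 genes, 2 were called lower in PAM day 1 and 2 in indirect CAP day 2, Aqp1 and Aqp4 both times, and 2 lower and 1 higher, Aqp7, in PAM day 2. Over all genes tested, 5.4% were called lower in PAM day 1, 5.71% in indirect CAP day 2 and 10.5% in PAM day 2, where 6.82% were called higher. In direct CAP 24 h, indirect CAP day 1 and direct CAP 30 min, limma called 0 of the 7, where it called 2.17%, 1.31% and 0.00564% of all genes in either direction, and 4, 4 and 1 of the 7 had an unadjusted p under 0.05, as did 32.6%, 38.6% and 24.9% of all genes. The 4 were Aqp1, Aqp4, Aqp7 and Aqp8 both times. Aqp8 reached a value of 10 in those 2 fits in untreated libraries alone, so its place among the 4 was built in. The 9 libraries of direct CAP 24 h, indirect CAP day 1 and PAM day 1, exposed from day 1 and by the methods for 24 h, were also combined. Set against the 4 untreated ones, Aqp4 (-1.92, SE 0.40, adjusted p = 0.00309) and Aqp1 (-1.48, SE 0.33, adjusted p = 0.00421) were called lower, beside 2.07% of all genes. Aqp8 (-1.77, SE 0.45, adjusted p = 0.00885) was also past the threshold, but it reached a value of 10 in this fit in untreated libraries alone, so it had to differ and is not counted, and with line as a replicate block it was lost (adjusted p = 0.0214). Those 9 libraries come from 3 lines, so their spread is not that of 9 animals. Without the untreated libraries of lines 1 and 2 neither Aqp4 (adjusted p = 0.0497) nor Aqp1 (adjusted p = 0.0647) passed, and Aqp8 was not tested. Without the untreated line 1 library alone, both were also lost (adjusted p of 0.0154 for Aqp4 and 0.0191 for Aqp1), and Aqp1 was lost without any one of the 4 untreated libraries. All comparisons with untreated share the same 4 control libraries, and with 7 genes such a count is a description of those genes and no statement about the family.

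A group that does not overlap with the untreated libraries is a common sight in these data. All treated values below all untreated ones, as for Aqp1 and Aqp4, held for 19.1% of the genes tested in direct CAP 24 h, 17.7% in indirect CAP day 1, 29.7% in PAM day 1, 25.8% in indirect CAP day 2 and 32.6% in PAM day 2. All treated values above all untreated ones, as for Aqp7, held for 11.6%, 16.7%, 17.1%, 22.7% and 20.7% in the same order.

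**Figure D3:**
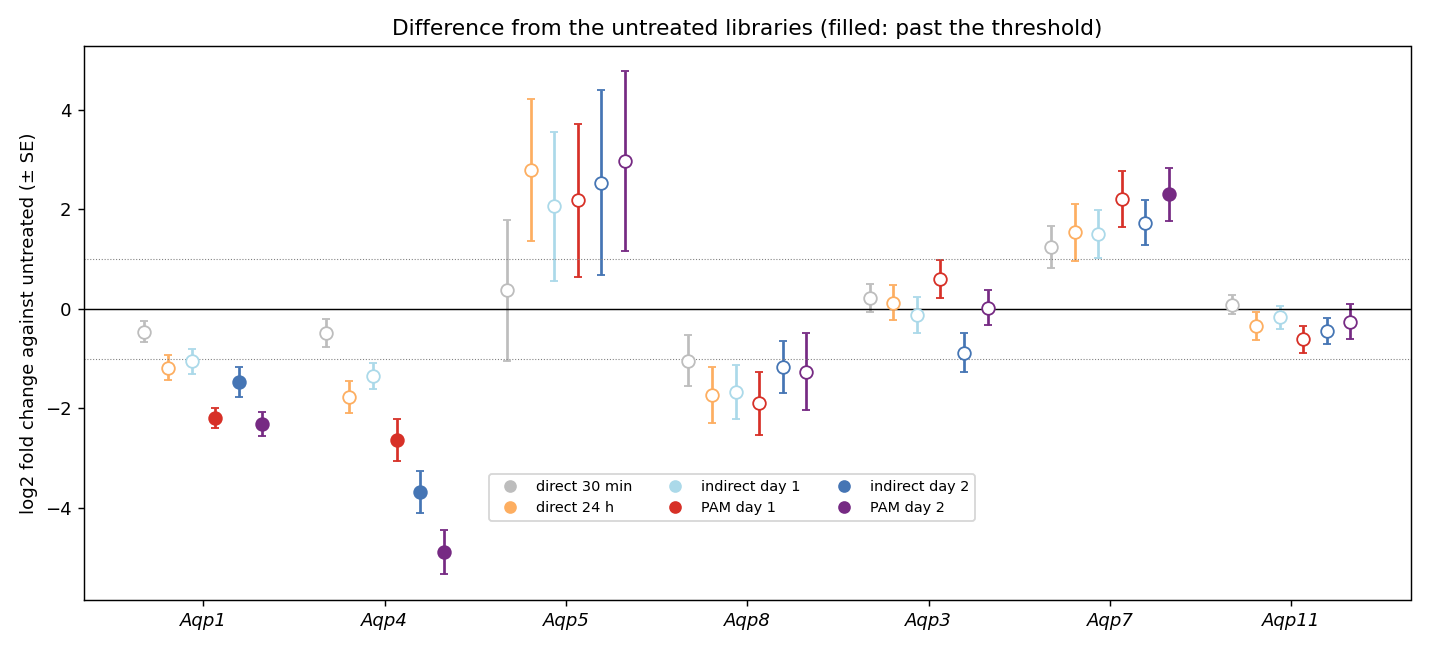
Log2 fold change (log2 of value + 1, points with bars of 1 SE) of each aquaporin in each treated group against the 4 untreated libraries, filled where the call passed. Aqp1 and Aqp4 lie below 0 in all 6 groups and are filled in PAM day 1, indirect CAP day 2 and PAM day 2, while Aqp5 lies above 0 with the longest bars.

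Of the aquaglyceroporins Aqp3 and Aqp7, neighbours in the genome, Aqp7 passed the test in 1 group and Aqp3 in none, and the difference between them was not tested. Aqp7, which carries glycerol in adipocytes, was close to the limit of measurement in untreated organoids, at 18, 11, 10 and 7 in lines 1, 2, 3 and 4. In lines 1, 2 and 4 it was 16, 47 and 26 with direct CAP for 30 min, 19, 93 and 21 with direct CAP for 24 h, and 21, 72 and 23 with indirect CAP from day 1. With PAM from day 1 it was 31, 147 and 34, with indirect CAP from day 2 23, 75 and 33, and with PAM from day 2 51, 132 and 28. In each treated group but direct CAP 30 min, all 3 values lay above all 4 untreated ones. Only in PAM day 2 was Aqp7 called higher, at a log2 fold change of 2.30 (SE 0.53, adjusted p = 0.00857), and that call is fragile. It was lost at a pseudocount of 10 (1.71, adjusted p = 0.0102), with no filter (adjusted p = 0.0128), with line as a replicate block (2.26, adjusted p = 0.0137), without the untreated libraries of lines 1 and 2 (2.64, adjusted p = 0.038), and in 6 of the 7 fits without 1 library (adjusted p between 0.0125 and 0.0237), the exception being the fit without the treated line 4 library. The other groups gave 2.21 (SE 0.56, adjusted p = 0.0139) in PAM day 1, 1.73 (SE 0.45, adjusted p = 0.0146) in indirect CAP day 2, 1.54 (SE 0.57, adjusted p = 0.0981) in direct CAP 24 h, 1.5 (SE 0.48, adjusted p = 0.0562) in indirect CAP day 1 and 1.24 (SE 0.42, adjusted p = 0.133) in direct CAP 30 min. Over the 9 day 1 libraries combined, Aqp7 had 1.75 (adjusted p = 0.0173) and, with line as a replicate block, 1.71 (adjusted p = 0.00804, called higher).

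Aqp3, the glycerol and water channel of basolateral membranes in many epithelia, did not pass the test in any comparison with untreated. Its untreated values were 343, 296, 332 and 152. In lines 1, 2 and 4 it had 318, 366 and 254 with direct CAP for 30 min, 224, 482 and 230 with direct CAP for 24 h, and 155, 396 and 236 with indirect CAP from day 1. It had 263, 715 and 359 with PAM from day 1, 102, 269 and 110 with indirect CAP from day 2, and 234, 429 and 200 with PAM from day 2. Every treated group overlapped with the untreated libraries, and the fold changes ran from -0.88 (adjusted p = 0.102) in indirect CAP day 2 to 0.60 (SE 0.38, adjusted p = 0.24) in PAM day 1. Of the 6 genes of glycerol use and release, 5 could be tested, and 2 of them were called higher in PAM day 1 and in PAM day 2, where 4.83% and 6.82% of all genes were. These were Gk, which phosphorylates glycerol (log2 fold changes of 1.23 and 1.25), and Gpd2, the mitochondrial glycerol 3-phosphate dehydrogenase (1.16 and 1.55). Gk was also higher in direct CAP 24 h (1.13) and Gpd2 in indirect CAP day 2 (1.25). The median of the list was 0.24 in PAM day 1 and 0.47 in PAM day 2, beside -0.13 and -0.12 over all genes tested.

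Aqp5, the apical water channel of secretory glands, varied widely between the organoid lines. Untreated values were 1, 31, 12 and 100 in lines 1, 2, 3 and 4. In line 1 the treated values were 23 with direct CAP for 30 min, 283 with direct CAP for 24 h, 194 with indirect CAP from day 1, 178 with PAM from day 1, 594 with indirect CAP from day 2 and 367 with PAM from day 2. In line 4 the same groups gave 111, 356, 229, 323, 411 and 922, whereas in line 2 they gave 3, 15, 7, 7, 3 and 6. All 6 treated line 2 libraries thus lay below the other 12 treated libraries, a pattern that was noticed after the values were seen. In line 4, each treated value exceeded the untreated value of 100. In line 1, all did so over an untreated value of 1, a label that is in doubt, and all but the 30 min value also exceeded the 31 of the untreated library labelled line 2. The fold changes were positive in all 6 groups, from 0.37 (SE 1.42) in direct CAP 30 min to 2.97 (SE 1.81, adjusted p = 0.205) in PAM day 2, and none was called, with an SE of 1.42 or more in each. The sign in direct CAP 30 min turned (-0.72) without the untreated libraries of lines 1 and 2. Over the 9 day 1 libraries combined, Aqp5 had 2.34 (SE 1.24, adjusted p = 0.16) and was not called. Without the treated libraries of line 2, a setting added after seeing the data, the 6 remaining day 1 libraries together gave 3.89 (SE 0.80, adjusted p = 0.00435, called higher), from 2 mice. The libraries left out were those seen to be lowest for Aqp5, so a higher value was built in and that call is not counted.

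The same line stood out in other members, in the other direction. Line 2 was the highest of the 3 lines in all 6 treated groups for Aqp3 (269 to 715), Aqp7 (47 to 147) and Aqp11 (1635 to 2182). Over all 19206 genes read in the treated libraries, 4.82% had line 2 highest in all 6 groups, and 0.385%, 74 genes, had all 6 line 2 libraries below the other 12. Line 2 was also highest for Aqp4 in 5 of the 6 groups and for Aqp1 in 4. Each line is 1 mouse and lines 1 and 2 were of male mice, so line, passage and animal cannot be told apart.

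**Figure D4:**
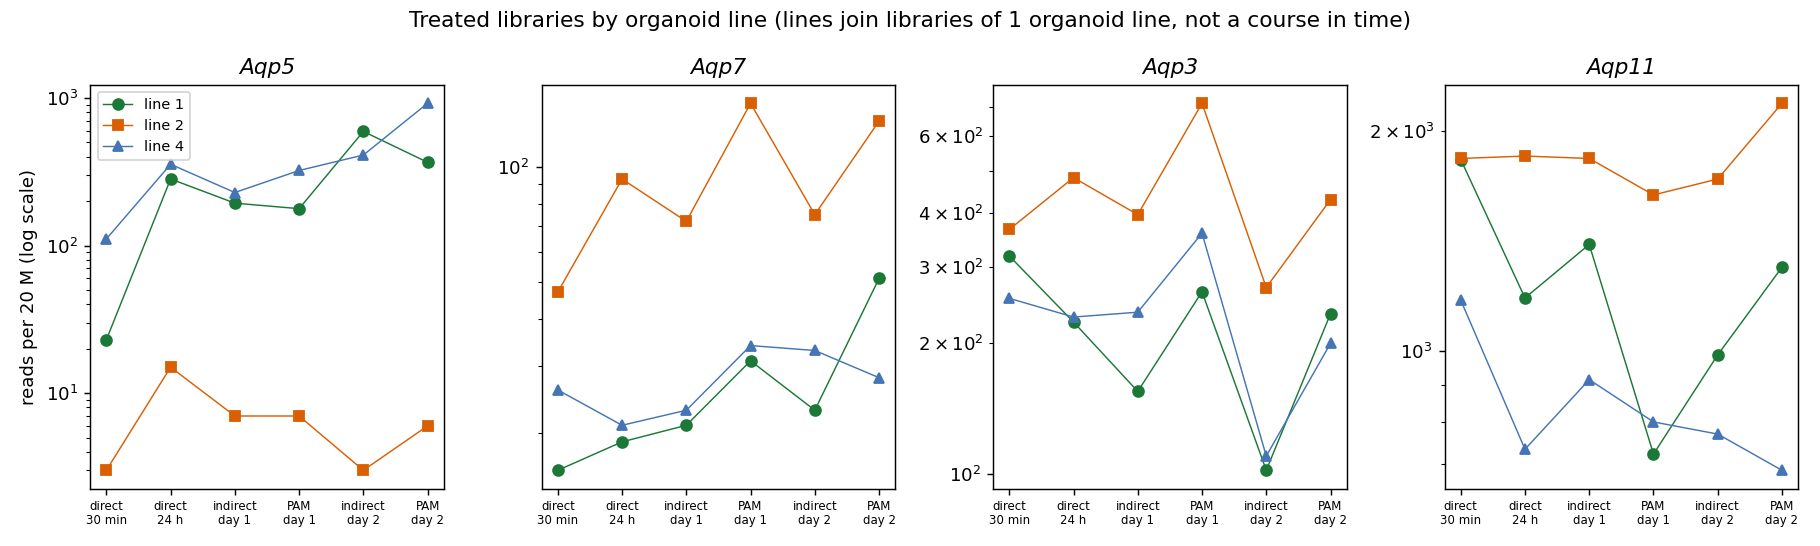
CP20M value (reads per 20 M, log axis) of Aqp5, Aqp7, Aqp3 and Aqp11 in the 6 treated groups, with 1 line drawn per organoid line. For Aqp5 line 2 stays between 3 and 15 while lines 1 and 4 run from 23 to 922, and for the other 3 genes line 2 is the highest in every group.

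Aqp11, found in the endoplasmic reticulum, changed little on average and was not called in any comparison with untreated. Its untreated values were 1616, 1836, 1365 and 1235. Treated values in lines 1, 2 and 4 were 1828, 1834 and 1174 with direct CAP for 30 min, 1182, 1848 and 734 with direct CAP for 24 h, and 1399, 1834 and 914 with indirect CAP from day 1. They were 723, 1635 and 800 with PAM from day 1, 988, 1719 and 770 with indirect CAP from day 2, and 1302, 2182 and 687 with PAM from day 2. Line 4 was below its untreated value in all 6 groups, and each group overlapped with the untreated libraries. Fold changes ran from -0.61 (adjusted p = 0.108) in PAM day 1 to 0.08 in direct CAP 30 min.

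Aqp8, a channel of the colon and of secretory organs, was barely detected, at 15, 6, 22 and 29 in untreated lines 1 to 4 and between 1 and 12 in the 18 treated libraries. Only 6 of the 22 libraries reached a value of 10, and the gene passed the filter on low values in the comparisons with untreated through untreated libraries, so a lower value in treated ones was built in. Its fold changes ran from -1.90 (adjusted p = 0.0437) in PAM day 1 to -1.04 in direct CAP 30 min, and the call in the 9 libraries combined was lost in 6 of the 10 fits without 1 library that could test it. The other aquaporin genes of the table were at or near the floor of the measurement: Aqp2 was at most 3, Mip 5, Aqp6 1 and Aqp12 3. Aqp9, the aquaglyceroporin of liver, reached 10 in only 3 libraries and was at most 31. None of these 5 was tested.

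In the order of the 7 group means, no 2 neighbouring groups were separate in any of the 7 genes. For Aqp4 the order ran from untreated (1768.5 ± 505) through direct CAP 30 min (1282.3 ± 509), indirect CAP day 1 (702.67 ± 251), direct CAP 24 h (544 ± 285), PAM day 1 (325.67 ± 221) and indirect CAP day 2 (159.33 ± 123) to PAM day 2 (66.333 ± 36.7). For Aqp1 it ran from untreated (3030.5 ± 495) through direct CAP 30 min (2260.7 ± 725), indirect CAP day 1 (1530 ± 561), direct CAP 24 h (1398.3 ± 530), indirect CAP day 2 (1193.3 ± 649) and PAM day 1 (670 ± 203) to PAM day 2 (631 ± 224).

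Comparisons between treatments addressed the length and the route of exposure, with 3 libraries against 3 from the same lines. Without the lines as a block, limma called 0 of the 6 genes tested (Aqp8 was not tested) in all 7 such comparisons, where it called 0.0111% of all genes in indirect CAP day 2 against day 1 and 0% in the other 6. At an unadjusted p under 0.05 stood Aqp4 in direct CAP 24 h against 30 min, in indirect CAP day 2 against day 1 and in PAM day 2 against day 1, Aqp1 in PAM day 1 against direct CAP 24 h, and both in PAM day 1 against indirect CAP day 1. The other 2 comparisons, indirect CAP day 1 against direct CAP 24 h and PAM day 2 against indirect CAP day 2, had none. Over all genes tested, 21.4%, 21.7%, 26.8%, 10.4% and 21.7% had an unadjusted p under 0.05 in the first 5 of these comparisons, in the order given, and 6.95% and 9.48% in the last 2.

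Aqp4 was lower after the longer direct exposure, past the threshold in the fit that took the lines as a block. In direct CAP 24 h against 30 min, Aqp4 differed by -1.28 (SE 0.38, adjusted p = 0.205), the values of 372, 387 and 873 all lying below 887, the lowest at 30 min, as for 20.6% of all genes. Within lines 1, 2 and 4 the log2 difference was -1.57, -1.09 and -1.19. With line as a replicate block it was -1.28 (SE 0.13, adjusted p = 0.00243) and was called lower, beside 0.583% of all genes called lower in that fit. Aqp1 differed by -0.72 (SE 0.33, adjusted p = 0.247) and Aqp5 by 2.41 (SE 1.47, adjusted p = 0.342), each in the same direction in 3 of 3 lines, and neither was called with the block either (adjusted p of 0.0114 for Aqp1, and 0.01 for Aqp5, just over the threshold before rounding).

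Aqp4 was also lower when exposure began on day 2, again called for indirect CAP in the fit with the block. In indirect CAP day 2 against day 1, Aqp4 differed by -2.33 (SE 0.50, adjusted p = 0.0569), with 86, 91 and 301 against 514, 606 and 988, as for the 14.7% of all genes whose day 2 values all lay below those of day 1. The log2 difference was -2.80, -1.71 and -2.48 within lines 1, 2 and 4. With the block, its difference of -2.33 (SE 0.18, adjusted p = 4.16e-05) was called, beside 2.31% of all genes called lower. In PAM day 2 against day 1, Aqp4 differed by -2.26 (SE 0.66, adjusted p = 0.0929), with differences of -0.64, -2.71 and -3.43 within lines 1, 2 and 4. Its PAM day 2 values all lay below those of day 1, as for 16.9% of all genes. It was not called with the block (adjusted p = 0.058), and was called when all 7 groups shared 1 estimate of the spread (adjusted p = 0.00921). Aqp3 was lower in the day 2 group in 3 of 3 lines in both comparisons (-0.75 for indirect CAP and -0.58 for PAM), with no call. With the block its adjusted p was 0.00459 for indirect CAP, where only the fold change fell short of the threshold, and 0.0874 for PAM. Aqp1 differed by -0.42 (SE 0.43, adjusted p = 0.618) and -0.11, a difference inside the spread of the libraries.

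For the route of exposure at a matched start, PAM gave lower Aqp1 than the other routes in all 3 lines, without a call. In the comparisons with direct CAP 24 h, the length of exposure is matched by the methods but not by the labels. The log2 difference of Aqp1 was -1.16 (SE 0.32, adjusted p = 0.165) for PAM against indirect CAP from day 1 (no overlap, as for 20% of all genes with PAM lower), -1.02 (SE 0.32, adjusted p = 0.412) for PAM day 1 against direct CAP 24 h, and -0.84 (SE 0.43, adjusted p = 0.578) for PAM against indirect CAP from day 2. Aqp4 differed by -1.28 (SE 0.50, adjusted p = 0.21), -0.85 (SE 0.53, adjusted p = 0.603) and -1.21 (SE 0.67, adjusted p = 0.595) in the same 3 comparisons. Aqp3 went the other way, higher with PAM in 3 of 3 lines each time, by 0.74 (SE 0.45, adjusted p = 0.359), 0.48 and 0.91 (SE 0.45, adjusted p = 0.573). With the block none of these 9 differences passed either. Indirect CAP day 1 against direct CAP 24 h gave 0.13 for Aqp1 and 0.43 (SE 0.37, adjusted p = 0.698) for Aqp4, higher in 3 of 3 lines for both.

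Genes that act beside aquaporins were read from lists of the pathway. Of 6 genes of the response to hypertonic stress, 5 could be tested, and the same 2 were called higher in indirect CAP day 2 (6.2% of all genes) and in PAM day 2. They were Nfat5, the transcription factor that answers hypertonicity, at 1.21 (SE 0.13, adjusted p = 0.000216) and 1.42 (SE 0.13, adjusted p = 0.000348), and Slc5a3, which takes up the osmolyte myo-inositol, at 2.07 (SE 0.36, adjusted p = 0.00242) and 1.99 (SE 0.45, adjusted p = 0.00827). The list's median was 1.21 and 1.42, beside -0.01 and -0.12 over all genes tested, and none of it was called in any other group.

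The dystrophin complex anchors Aqp4 in astrocyte endfeet and muscle. Of its 8 genes, Dmd, which encodes dystrophin, was called lower in 4 of the 6 groups, at -1.05 in direct CAP 24 h (lost with line as a replicate block, adjusted p = 0.0135, and at -0.99 after quantile normalization), -1.51 in PAM day 1, -1.58 in indirect CAP day 2 and -2.64 (SE 0.29, adjusted p = 0.000464) in PAM day 2. The share of all genes called lower in these groups was 0.917%, 5.4%, 5.71% and 10.5%, in the same order. The list's median stayed between -0.06 and 0.12.

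Of 13 genes that form or remove hydrogen peroxide, 2 were called lower in PAM day 1, indirect CAP day 2 and PAM day 2 and none higher in any group. In those groups 5.4%, 5.71% and 10.5% of all genes were called lower, and 2 of 13 is not far from the PAM day 2 share. With 13 genes such a count is a description and no statement about the list. Nox1, an epithelial NADPH oxidase that makes superoxide, had -2.77, -2.01 and -2.84 (SE 0.26, adjusted p = 0.000338), and Prdx4, a peroxiredoxin of the endoplasmic reticulum, had -1.58, -1.93 and -2.40 (SE 0.21, adjusted p = 0.000321). Prdx4 was also called in indirect CAP day 1 (-1.04), a call lost with line as a replicate block (adjusted p = 0.0114). Without the treated libraries of line 2 that call was lost too (adjusted p = 0.0162), as was that of Nox1 in indirect CAP day 2 (adjusted p = 0.0124). Of 9 genes of ion and solute transport that water follows, 1 was called, Kcnn4, a basolateral potassium channel that sustains chloride secretion, lower in PAM day 2 at -1.28 (SE 0.18, adjusted p = 0.00105). With 10.5% of all genes called lower there, 1 of 9 is near that share. Without the untreated libraries of lines 1 and 2, none of the list calls named here held in PAM day 2 (adjusted p from 0.0104 for Nox1 to 0.0801 for Slc5a3), direct CAP 24 h or indirect CAP day 1. In PAM day 1 and indirect CAP day 2 those of Gk, Gpd2, Nfat5, Dmd and Prdx4 held, while Nox1 in PAM day 1 (adjusted p = 0.0105) and Slc5a3 in indirect CAP day 2 (adjusted p = 0.0294) did not.

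The genes whose pattern was most like each member's were sought among 10398 abundant genes by the Pearson correlation of log2(value + 1) over the 22 libraries. The libraries share lines and groups, and the values are a description. Nearest to Aqp4 were Txndc5 (r = 0.979), Clint1 (0.975) and Nipsnap1 (0.971), and Txndc5, a protein disulfide isomerase of the endoplasmic reticulum, was still nearest once the group means were removed (0.949). Nearest to Aqp1 were Pcdh8 (0.96), Add3 (0.949) and Slain1 (0.948). For Aqp5 they were Nkx6-3 (0.917), a homeobox factor known from the gastric antrum, Loxl4 (0.916) and Flnc (0.915), and after group means were removed Chic1 (0.963) came before Nkx6-3 (0.951). For Aqp7 they were Slc22a5 (0.919), the carnitine transporter, Gpt (0.906) and Trib1 (0.905), with Gpd1, the cytosolic glycerol 3-phosphate dehydrogenase, nearest after removal of group means (0.954). Among the 3 nearest to Aqp3 were Cyp4f13 (0.845) and Hsd17b6 (0.842). Treh, the brush border trehalase, was nearest to Aqp11 both before (0.96) and after (0.985) removal of group means, with Slc52a2 (0.944) and Mfsd7b (0.938) next. Gorab (0.797), Cacfd1 (0.764) and Stk11 (0.74) were nearest to Aqp8, whose values were at the floor in most libraries.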

How the data were processed

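Total RNA of 22 organoid cultures was sequenced with paired reads of 100 bases. Per the labels and methods, the authors trimmed reads with Trimmomatic 0.36, aligned them with STAR 2.5.3a to mm10 and counted them per gene with HTSeq 0.9.1. The labels name the Ovation SoLo library kit, and the methods that kit or NEBNext. The deposited values are scores: counts scaled to 20 M per library (CP20M) and rounded up, with column sums of 20007540 to 20016513, so low values hold rounding. They are not counts, so limma was used in place of a count model. The methods call CP20M a value per kilobase, but the deposited values were not divided by length.

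Groups came from the labels. The members and lists were chosen with earlier results of these data known. Named beside the 7 genes were list members past the threshold, at most 4 per list, and the 3 genes most like each member among those with a mean of at least 100, and some of these genes are not reported here. Genes that reached 10 in 3 or more of the fitted libraries were tested with limma 3.58.1 (R 4.3.3; eBayes, trend) on log2(value + 1), only the groups compared entering a fit. The pseudocount understates changes of low genes such as Aqp7 and Aqp8. On simulated data, 3 against 4 libraries recovered 28 of 63 genes changed 2-fold and 68 of 68 changed 4-fold, with 1 false call. The simulated libraries were independent, with no differences between lines, and no low gene was changed. That recovery therefore does not carry over to the members. Aqp7 in PAM day 1 (4.62-fold) and Aqp5 in direct CAP 24 h (6.9-fold) were not called. The alternatives tried were line as a replicate block, leaving out each library, 1 fit over all 7 groups, an adjusted p under 0.05 whatever the fold change, a pseudocount of 10, quantile normalization and testing without the filter. 2 settings were added after seeing the data: without the untreated libraries of lines 1 and 2, and without the treated libraries of line 2. The replicate numbers pair the treated libraries, since a number is 1 mouse's line and same-line deviations correlated in 45 of 45 pairs. The pairing of the untreated libraries of lines 1 and 2 is in doubt, and it enters the block fits against untreated. Depth was estimated from the steps that scaling leaves in low values. Positions and exon lengths are those of GENCODE vM21, which held 52403 of the 52636 genes. Figures were drawn with matplotlib 3.10.9. Each mouse line gave 1 culture per group, so a p-value measures the spread between lines in fits of single groups without the block. With the block it measures the scatter of differences within lines. In the 9 day 1 libraries combined, each line enters more than once and the spread between the groups is included.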

Additional observations from a re-analysis of the deposited data

How the results depend on the processing

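The numbers of aquaporins past the threshold moved by more than 1.5 times in these settings. With untreated libraries of lines 1 and 2 left out, 1 passed in PAM day 1, 1 in indirect CAP day 2, 0 in PAM day 2 and 0 in the 9 day 1 libraries. With treated line 2 left out, 2 passed in direct CAP 24 h and 1 in indirect CAP day 2. At an adjusted p under 0.05, 2 passed in direct CAP 24 h, 2 in indirect CAP day 1 and 4, Aqp8 included, in PAM day 1. In direct CAP 24 h, 1 passed at a pseudocount of 10 and 1 with no filter. With line as a replicate block, 1 passed in PAM day 1, 1 in direct CAP 24 h against 30 min and 1 in indirect CAP day 2 against day 1. For single genes it also gained Aqp7 over the 9 day 1 libraries (1.71, adjusted p = 0.00804) and lost Aqp7 in PAM day 2 (adjusted p = 0.0137) and Aqp8 over the 9 (adjusted p = 0.0214), and of the other genes named it lost Dmd in direct CAP 24 h (adjusted p = 0.0135) and Prdx4 in indirect CAP day 1 (adjusted p = 0.0114), with no further call changed. With all 7 groups in 1 fit, 1 passed in PAM day 2 against day 1. Leaving out each library gave 0 to 2 in direct CAP 24 h, 1 to 2 in indirect CAP day 2, 2 to 3 in PAM day 2 and 0 to 3, Aqp8 included, in the 9 day 1 libraries. Quantile normalization moved the median of all genes from -0.118 to 0.000 in PAM day 2, from -0.136 to -0.016 in PAM against indirect CAP from day 1 and from -0.107 to 0.008 in the same from day 2, and turned no member's direction. Of the 1303 fold changes of members under alternatives, 1175 kept direction and side of the threshold, 40 lost a call, 19 gained one and 69 reversed, all 69 of values not called. The cause of these moves was not tested.

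Reversed without treated line 2 were Aqp11 in direct CAP 30 min (-0.03), Aqp3 in direct CAP 24 h (-0.24), PAM day 2 (-0.31) and the 9 day 1 libraries (-0.17), Aqp7 in direct CAP 24 h against 30 min (-0.03) and in indirect CAP day 1 against direct CAP 24 h (0.13), and Aqp1 in PAM day 2 against day 1 (0.41). Without untreated lines 1 and 2, Aqp5 in direct CAP 30 min (-0.72), Aqp3 (0.12) and Aqp11 (0.03) in indirect CAP day 1 reversed. Without 1 library each, Aqp1 ran from -0.19 to 0.46 in indirect CAP day 1 against direct CAP 24 h and -0.36 to 0.18 in PAM day 2 against day 1. Aqp3 ran from -0.06 to 0.35 in direct CAP 30 min, -0.24 to 0.31 in direct CAP 24 h, -0.48 to 0.19 in indirect CAP day 1, -0.31 to 0.24 in PAM day 2, -0.07 to 0.32 in the 9 day 1 libraries, -0.44 to 0.11 in direct CAP 24 h against 30 min and -0.61 to 0.10 in indirect CAP day 1 against direct CAP 24 h. Aqp5 ran from -0.80 to 1.61 in direct CAP 30 min, -2.16 to 0.85 in indirect CAP day 1 against direct CAP 24 h, -2.04 to 1.04 in PAM day 1 against direct CAP 24 h, -1.45 to 1.76 in PAM against indirect CAP from day 1, -1.89 to 2.55 in PAM against indirect CAP from day 2, -1.09 to 2.80 in indirect CAP day 2 against day 1 and -0.85 to 2.91 in PAM day 2 against day 1. Aqp7 ran from -0.42 to 0.70 in direct CAP 24 h against 30 min, -0.59 to 0.69 in indirect CAP day 1 against direct CAP 24 h, -0.05 to 1.39 in PAM day 1 against direct CAP 24 h, -0.01 to 1.26 in PAM against indirect CAP from day 1, -0.03 to 1.07 in PAM against indirect CAP from day 2, -0.24 to 0.78 in indirect CAP day 2 against day 1 and -0.50 to 0.81 in PAM day 2 against day 1. Aqp11 ran from -0.03 to 0.29 in direct CAP 30 min, -0.40 to 0.10 in indirect CAP day 1, -0.66 to 0.17 in PAM day 2, -0.15 to 0.51 in indirect CAP day 1 against direct CAP 24 h, -0.62 to 0.08 in PAM day 1 against direct CAP 24 h, -0.21 to 0.62 in PAM against indirect CAP from day 2 and -0.05 to 0.78 in PAM day 2 against day 1. Depth limits Aqp7, Aqp8 and untreated Aqp5, whose values were often under 20.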
